A study of Saccharomyces cerevisiae with 7 samples.

Results

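The genes described here carry the names of yeast mitochondrial ribosomal proteins, and all but MRP8 have a ribosomal product in the reference. They were chosen by standard name, as every protein-coding gene of the deposited transcript annotation whose name is MRPL, MRPS, RSM or MRP followed by digits. The rule gave 54 of the 3000 mRNAs, in an annotation of 3196 transcripts. Of these, 28 are MRPL genes, which name the large subunit, and 15 are small subunit genes, 8 MRPS and 7 RSM. The other 11 are MRP genes with a number, whose names do not give the subunit. The reference annotation R64 (RefSeq) has 67 genes with such names, and the 13 that the deposited annotation does not list are MRP20, MRP21, MRPL17, MRPL24, MRPL25, MRPL27, MRPL32, MRPL40, MRPS17, RSM22, RSM24, RSM27 and RSM28.

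The study mapped RNA secondary structure in Saccharomyces cerevisiae. Polyadenylated RNA of log-phase cells was folded in vitro and cut either with RNase V1, which cleaves paired bases, in 4 libraries, or with nuclease S1, which cleaves unpaired bases, in 3 libraries. The sample titles speak of total RNA, whereas their source field speaks of polyA RNA, and no strain or genotype is named for either group. Cleavage values were not analysed here, so every value below is a length or position from the study's transcript annotation, or a property of R64 sequence read by gene name, and none has a replicate error. Standard errors (SE) and SDs give the spread between genes. Intervals are 95% Wilson intervals and cover counting error over genes only. No test was run, since genes are not replicates.

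The mitochondrial ribosome translates the few proteins that the mitochondrial genome of yeast encodes, most of them core subunits of the respiratory chain and of the ATP synthase. Nearly all of its own proteins are encoded in the nucleus, made on cytosolic ribosomes and imported, often by way of a basic N-terminal presequence. In budding yeast the Pumilio-type protein Puf3 binds an 8-base element, TGTANATA in DNA letters with N any base, in the 3′ UTR of many mRNAs for mitochondrial proteins, and it acts in their decay, localization and translation.

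R64 gives each protein its standard ribosomal name, in which u marks families shared by all domains of life, b families shared with bacteria and m families known from mitochondria. By these names the large subunit had 31 of the 54 members, with 13 u, 7 b and 11 m proteins. The small subunit had 22, with 11 u, 4 b and 7 m proteins. Of the numbered MRP genes, MRP7 (bL27m), MRP35 (bL35m) and MRP49 (mL61) are large subunit genes. MRP1 (mS43), MRP2 (uS14m), MRP4 (uS2m), MRP10 (mS37), MRP13 (mS44), MRP17 (bS6m) and MRP51 (bS1m) are small subunit genes. MRP8 has no ribosomal name in R64. The members lay on 13 of the 16 chromosomes, with 27 on each strand. They made up 9 of the 377 mRNAs of chromosome 4, 9 of the 201 of chromosome 14 and 7 of the 169 of chromosome 11.

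The element TGTANATA was present on the transcribed strand of nearly every member's 3′ UTR. The following windows of R64 sequence show it in both subunits, read 5′ to 3′ in the sense of the mRNA, with the 8-base element in capitals and T standing for U. They cover each form of the element found inside the members' annotated 3′ UTRs, a 3′ UTR that ends just past it, and the only searched large subunit 3′ UTR that lacked it. From the large subunit come MRPL4 (uL29m, chr12:1015467-1015496, plus strand), MRPL44 (mL53, chr13:720854-720883, minus strand), MRPL9 (uL3m, chr7:936023-936052, minus strand), MRPL38 (uL14m, chr11:131135-131164, plus strand), MRPL20 (mL58, chr11:599049-599078, minus strand) and MRPL51 (mL43, chr16:730250-730279, plus strand). From the small subunit come MRPS9 (uS9m, chr2:536224-536253, plus strand), MRPS35 (mS45, chr7:830212-830241, plus strand), MRPS12 (uS12m, a protein of the decoding site, chr14:694269-694298, minus strand), RSM7 (uS7m, chr10:638192-638221, minus strand), RSM25 (mS23, chr9:187933-187962, minus strand) and MRP17 (bS6m, chr11:437038-437067, minus strand).
MRPL4: accctctctccTGTAAATAtatatatatat
MRPL44: acaagcaagccTGTAAATAatatatatgca
MRPL9: tactacaatcaTGTACATAcatcaataata
MRPL38: aattaaccaccTGTATATAttgcttaaatt
MRPL20: aataacaatcgTGTAAATActactctataa
MRPL51: ataattatactTGTATATAtaatttggggc
MRPS9: ttcgttattccTGTAAATAaagttatatgt
MRPS35: ccattattactTGTACATAaaatattctac
MRPS12: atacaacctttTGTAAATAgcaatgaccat
RSM7: gtaaacttgccTGTACATAaacacatttat
RSM25: cctaaccaaccTGTATATAattaaaaacaa
MRP17: ctacaaacacaTGTAAATAcatacatatct

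The motif stood in 47 of the 49 member 3′ UTRs searched, those of genes with the same coding length in R64 (95.9%, interval 86.3 to 98.9%). Among all 2863 mRNAs searched the share was 14.6%, and among the 2814 mRNAs that are not members it was 371 (13.2%, interval 12 to 14.5%). The large subunit had it in 24 of 25 (96%, interval 80.5 to 99.3%), the small subunit in 14 of 14 (interval 78.5 to 100%) and the numbered MRP genes in 9 of 10 (90%, interval 59.6 to 98.2%). The large and small subunits thus differed by 1 gene, and their intervals overlapped. Without the condition on coding length RSM23 was searched too and held 1 copy. The counts were then 48 of 50 members (96%) and 14.6% of 2881 mRNAs. A match to these letters is a description of the sequence, and binding was not measured.

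The members without it inside the annotated 3′ UTR were MRPL51 and MRP8. In MRPL51 the 3′ UTR was listed at 38 nt and the motif began 48 nt after the stop codon, past the listed end. No copy was found in the 138 nt of MRP8, the member without a ribosomal name. With a fixed window of 150 nt after the stop codon, which also takes in the members without a listed 3′ UTR, 52 of 53 members had the motif, beside 14.3% of all 2979 mRNAs. The large subunit then stood at 28 of 28, including MRPL3, MRPL10 and MRPL35, and MRP35 had it too.

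**Figure D1:**
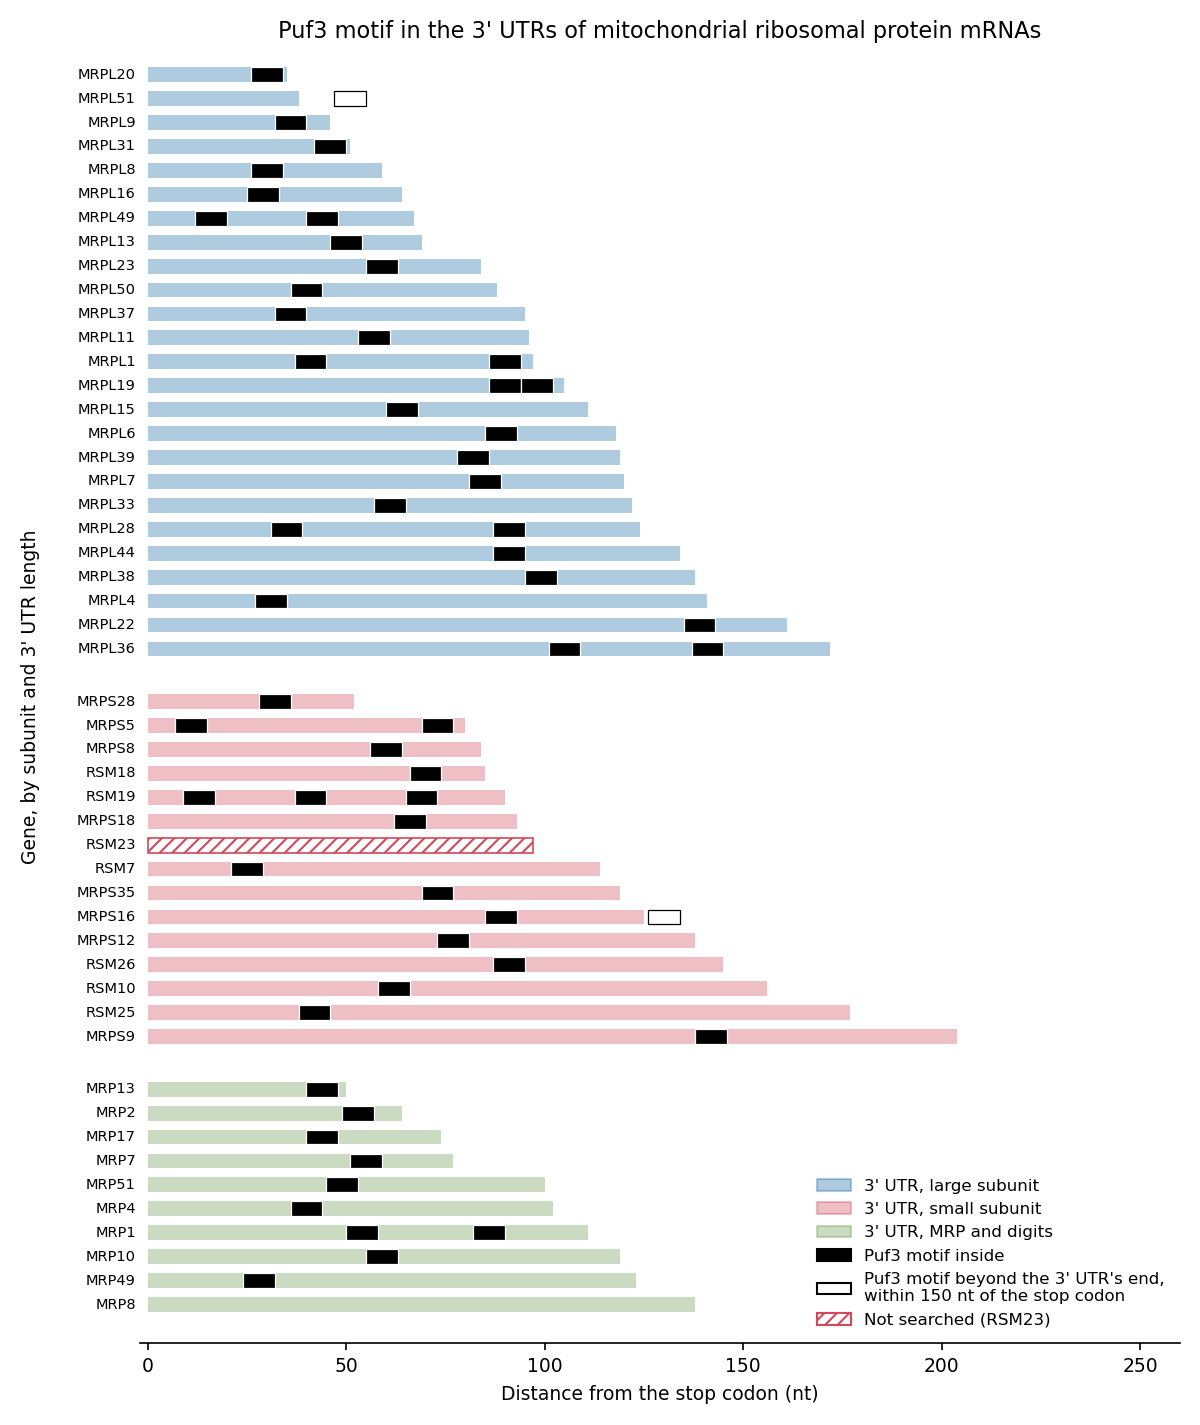
Position of TGTANATA in the 3′ UTR of the 50 members with a listed 3′ UTR, by subunit and length. The horizontal axis is the distance from the stop codon in nt, and bars are 3′ UTRs. Black boxes are motifs inside them and open boxes are motifs past their end. The hatched bar of RSM23, labelled as not searched, was left out because its annotated coding length differs from that of R64. Every searched bar holds a black box but those of MRPL51 and MRP8.

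The annotated 3′ UTRs of the members held 56 copies of the motif. Several copies stood in 8 of the 47 members with the motif, beside 38 of all 418 mRNAs with it. Among the 371 that are not members, 30 had several. Most members had 1, 7 had 2 and RSM19 (uS19m) had 3, which began 10, 38 and 66 nt after its stop codon. MRPL1, MRPL19, MRPL28, MRPL36, MRPL49, MRPS5 and MRP1 were the genes with 2, and in MRPL19 (uL11m) the copies followed each other without a gap, at 87 and 95 nt. The form UGUAAAUA made up 29 copies, UGUAUAUA 17 and UGUACAUA 10, and none of these was UGUAGAUA. Past or without a listed end that form did occur, as in MRPL3, where it began 18 nt after the stop codon in the 150 nt window, beside a UGUACAUA copy at 53 nt.

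The form TGTAAATA was found in 29 of 49 member 3′ UTRs (59.2%), against 4.23% of all mRNAs searched. Its share was 13 of 25 in the large subunit and 10 of 14 in the small subunit. A C stood 2 bases before the element in 35 of 49 members (71.4%), against 4.3% of all mRNAs, with 18 of 25 in the large subunit and 10 of 14 in the small. Most mRNAs hold no copy at all, so the forms were also counted among 3′ UTRs with the motif. There the C was found in 35 of 47 members (74.5%, interval 60.5 to 84.7%), in 29.4% of all 418 such mRNAs and in 88 of the 371 that are not members (23.7%, interval 19.7 to 28.3%). TGTAAATA was found in 29 of 47 members (61.7%), in 28.9% of all such mRNAs and in 92 of the 371 (24.8%). Of the windows shown above, only that of MRPS12 lacks this C.

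The motif lay at varied places in these 3′ UTRs. Its first copy began a median of 51 nt after the stop codon, with quartiles of 33 and 72 nt and a range of 8 to 139 nt. In the large subunit this median was 50.5 nt and in the small subunit 61 nt. The last copy ended a median of 29 nt before the listed end of the 3′ UTR, and 6 copies ended within 3 nt of it. In MRPL20 and MRPL31 a single base followed the element before the listed end. In the other mRNAs with the motif these medians were 57 nt and 42 nt.

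A longer 3′ UTR has more places for the motif, so the counts were also taken within classes of length. Among 3′ UTRs of up to 60 nt, 6 of 7 members had the motif and 6.33% of other mRNAs. Between 61 and 100 nt it was 17 of 17 and 12.2%, between 101 and 150 nt 19 of 20 and 15.3%, and above that 5 of 5 and 16.6%.

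The motif was also sought in 3 places other than the transcribed strand of the 3′ UTR. On the other strand of the 3′ UTR it was present in 6 of 49 members (12.2%), and the share of all mRNAs was 12.4%. In the last 150 nt of coding sequence it was found in MRPL38 alone, 1 of 53 members, and in 1.14% of all mRNAs. In the 150 nt before the start codon it was found in MRPL7, MRP4 and MRP35, 3 of 53, and in 3.69% of all mRNAs. In these 3 windows the members' shares were near those of all mRNAs.

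Genes of other names that serve the same ribosome or its products were searched in the same way. A chosen list of ribosomal proteins whose names fall outside the rule had 9 genes in the annotation, and all 9 had the motif. They were 6 of the large subunit (IMG1, MNP1, MHR1, MRX14, RTC6 and RML2) and 3 of the small (EHD3, NAM9 and SWS2). The list does not hold every annotated gene with such a product in R64. Of 6 listed translation factors, assembly factors and membrane receptors, 5 had it, among them TUF1 and MEF1, the mitochondrial elongation factors Tu and G, and OXA1, the inner membrane insertase. The 1 without it was MRM1, a methyltransferase of the large ribosomal RNA. All 3 listed mitochondrial aminoacyl-tRNA synthetases, MSK1, MST1 and MSW1, had it. Of the 3 listed translational activators that could be searched, CBP3 had it and PET54 and MSS51 did not. In the 150 nt window MSS51 had it as well, giving 2 of 4 activators, while the factors and receptors stood at 4 of 6, without MRM1 and MDM38. Cytosolic ribosomal protein mRNAs had it in 1 of 76 RPL genes and 1 of 56 RPS genes.

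**Figure D2:**
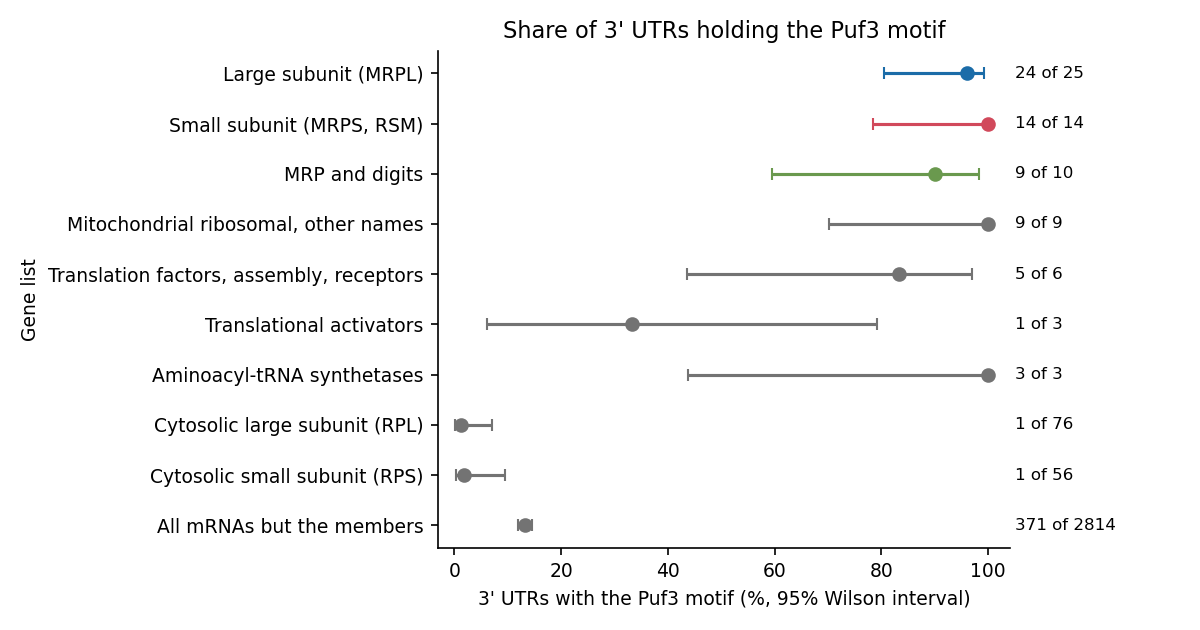
Share of 3′ UTRs that hold TGTANATA, in percent, for each gene list, with 95% Wilson intervals as bars and the number of genes at the right. The mitochondrial large and small subunits stand at 96% and 100%, the cytosolic ribosomal proteins below 2% and all mRNAs but the members at 13.2%.

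Large and small subunit genes were then compared by the lengths of their coding and untranslated regions. Both UTRs were listed for 46 of the 54 members. The 3′ UTR alone was listed for MRPL13, MRP13, RSM7 and RSM23, and neither UTR for MRPL3, MRPL10, MRPL35 and MRP35. The ranges of the 3 groups overlapped in each length.

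**Figure D3:**
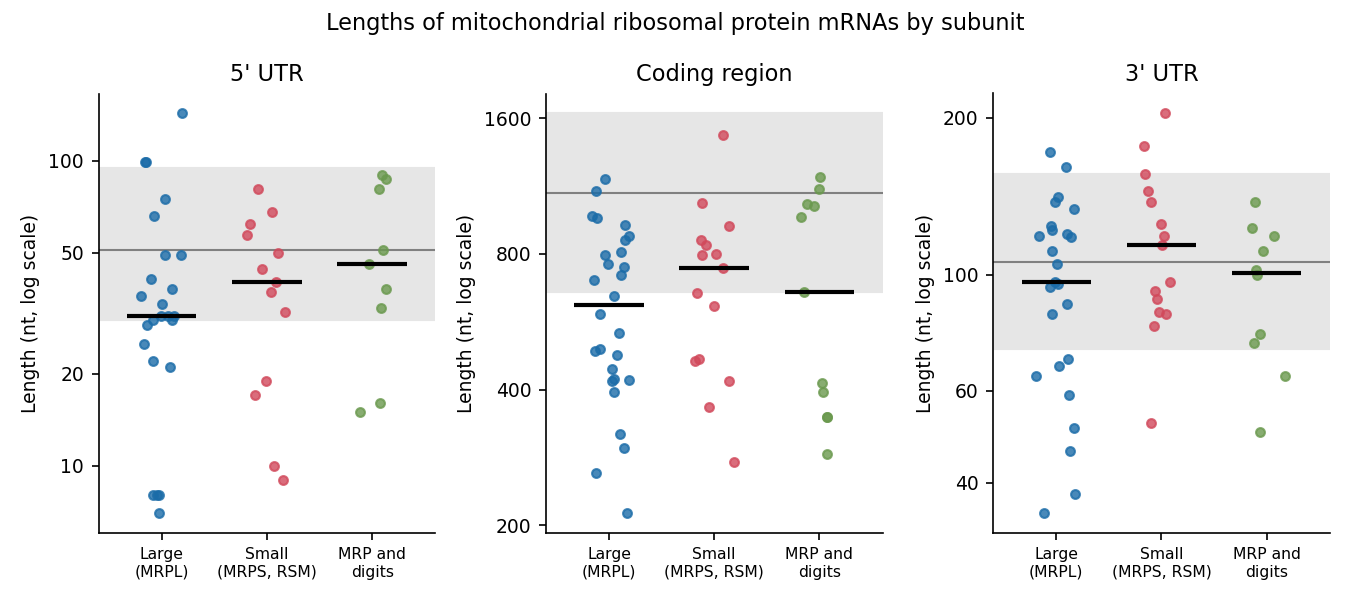
Lengths of the 5′ UTR, coding region and 3′ UTR in nt on log axes, with 1 point per gene and the group median as a black line. The grey line and band are the median and quartiles of all other mRNAs. Coding regions lie mostly below the grey line, while 3′ UTRs lie on both sides of it, and the subunits overlap in every panel.

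The members had short coding regions. The median coding region was 657 nt long, with a median of 1095 nt for the rest of the annotation, and 49 of 54 fell short of that value, as were 50.7% of all mRNAs. In mean log2 length the members were 0.76 lower than other mRNAs (difference -0.76, SE 0.093), which is 1.70-fold shorter. The large subunit had a median of 616.5 nt (n = 28, range 213 to 1173 nt) and the small subunit 744 nt (n = 15, range 276 to 1467 nt). The mean log2 difference, large minus small, was -0.17 (SE 0.21), smaller than its SE. Without RSM23 it was -0.090, and with the ribosomal proteins of other names added it was -0.30 (SE 0.20). In 43.8% of all pairs of a large and a small subunit gene the large subunit gene had the longer coding region.

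The shortest coding regions of the large subunit were those of MRPL39 (bL33m, 213 nt), MRPL33 (uL30m, 261 nt) and MRPL44 (mL53, 297 nt). Its longest were MRPL3 (mL44, with a ribonuclease III fold, 1173 nt), MRPL35 (mL38, 1104 nt) and MRPL10 (uL15m, 969 nt). The other 22 ran from 318 to 960 nt. In the small subunit the shortest were RSM19 (uS19m, 276 nt), MRPS16 (bS16m, 366 nt) and RSM18 (bS18m, 417 nt). The longest were RSM23 (mS29, the relative of human DAP3, 1467 nt), MRPS35 (mS45, 1038 nt) and MRPS5 (uS5m, 924 nt), and the other 9 ran from 462 to 861 nt. Among the numbered MRP genes the range was from MRP10 (mS37, 288 nt), MRP2 (uS14m, 348 nt) and MRP35 (bL35m, 348 nt) up to MRP51 (bS1m, 1035 nt), MRP7 (bL27m, 1116 nt) and MRP4 (uS2m, 1185 nt).

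By protein family, with subunits taken from the R64 names, the order of coding lengths differed between the subunits. In the large subunit the u proteins had a median of 750 nt, the b proteins 486 nt and the m proteins 444 nt. In the small subunit the u proteins had 654 nt, the b proteins 406.5 nt and the m proteins 966 nt. The ranges overlapped in each case, from 297 to 1173 nt in the large subunit m proteins and from 288 to 1467 nt in those of the small subunit, and the difference was not tested.

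The 5′ UTRs of the members were short as well. The median 5′ UTR measured 36.5 nt (n = 46), the other mRNAs having 51 nt, and 33 of 46 lay below 51 nt, as were 50.2% of all mRNAs. The mean log2 difference from other mRNAs was -0.65 (SE 0.16), or 1.57-fold shorter. Short 5′ UTRs were not found in every ribosomal list, nor in these members alone. In the chosen list of mitochondrial ribosomal genes of other names, the 8 with a listed 5′ UTR had a median of 51.5 nt, with 4 below 51 nt. Cytosolic RPL and RPS genes had medians of 26 and 28 nt. The large subunit had a median of 31 nt (n = 24) and the small subunit 40 nt (n = 13), with a mean log2 difference of -0.07 (SE 0.37). That difference was well within the spread between genes, with SDs of 1.16 and 1.04, and its sign changed with the genes left in. It was 0.18 with UTRs of at least 10 nt only.

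The shortest 5′ UTRs of the large subunit were MRPL37 (mL54) at 7 nt and MRPL20, MRPL33 and MRPL44 at 8 nt each. Its longest were MRPL7 (uL5m) at 143 nt and MRPL19 (uL11m) and MRPL31 (mL60) at 99 nt each. The other 17 lay between 21 and 75 nt. In the small subunit MRPS12 had 9 nt, RSM10 (uS10m) 10 nt and RSM19 17 nt. At the other end stood RSM26 (mS42) at 81 nt, RSM25 (mS23) at 68 nt and MRPS9 (uS9m) at 62 nt, and the other 7 lay between 19 and 57 nt. The numbered MRP genes ran from MRP17 (15 nt), MRP49 (16 nt) and MRP10 (33 nt) to MRP4 (81 nt), MRP51 (87 nt) and MRP1 (90 nt). The 5′ UTRs of 7, 8 and 9 nt show how little leader some of these mRNAs were annotated with.

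The 3′ UTRs of the members were close to those of other mRNAs. Their median was 101 nt (n = 50), against 106 nt, and 27 of 50 were below 106 nt, as were 49.7% of all mRNAs. The mean log2 difference was -0.11 (SE 0.083). The large subunit had a median of 97 nt (n = 25, range 35 to 172 nt) and the small subunit 114 nt (n = 15, range 52 to 204 nt). Large minus small, the mean log2 difference was -0.30 (SE 0.18), less than 2 SE. With the ribosomal proteins of other names added it was -0.33 (SE 0.16), just over 2 SE, and with the numbered MRP genes placed in their subunits it was -0.17 (SE 0.16). The large subunit gene had the longer 3′ UTR in 37.9% of pairs.

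MRPL20 (35 nt), MRPL51 (38 nt) and MRPL9 (46 nt) had the shortest 3′ UTRs of the large subunit, and MRPL36 (bL31m, 172 nt), MRPL22 (uL22m, 161 nt) and MRPL4 (uL29m, 141 nt) the longest. The other 19 lay between 51 and 138 nt. In the small subunit MRPS28 (uS15m, 52 nt), MRPS5 (80 nt) and MRPS8 (uS8m, 84 nt) were shortest, and MRPS9 (204 nt), RSM25 (177 nt) and RSM10 (156 nt) longest. The other 9 lay between 85 and 145 nt. The numbered MRP genes ran from MRP13 (mS44, 50 nt), MRP2 (64 nt) and MRP17 (74 nt) to MRP10 (119 nt), MRP49 (123 nt) and MRP8 (138 nt). MRPS9 thus had the longest 3′ UTR of all members, and its motif began 139 nt after the stop codon, farther than any other copy inside a member's 3′ UTR.

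Cytosolic ribosomal proteins gave the same comparison for another ribosome. Between RPL and RPS genes the mean log2 difference was -0.45 (SE 0.26) for the 5′ UTR, 0.06 (SE 0.11) for the coding region and -0.14 (SE 0.12) for the 3′ UTR. Each of the 3 was under 2 SE.

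Within single genes the 3′ UTR was the longer in 43 of 46 members, beside 75.1% of all mRNAs with both UTRs listed. The mean log2 difference, 3′ minus 5′, was 1.53 (SE 0.18), or 2.88-fold, against 0.96 (SE 0.030) in other mRNAs. It was 1.53 (SE 0.26) in the large subunit and 1.75 (SE 0.32) in the small subunit. The 5′ UTR was the longer in MRPL7 (143 against 120 nt), MRPL31 (99 against 51 nt) and MRPL9 (66 against 46 nt), which are all large subunit genes. All 13 small subunit genes with both UTRs had the longer 3′ UTR.

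Members with longer coding regions tended to have longer 5′ UTRs. Across the 46 members the rank correlation of 5′ UTR length and coding length was 0.54 (Pearson 0.52 on log2 lengths). Across all 2679 mRNAs with a listed 5′ UTR it was 0.26 (Pearson 0.24). Between the 3′ UTR and the coding region the rank correlation was -0.0027 in the members (n = 50) and -0.033 in all mRNAs. The points are genes of 1 annotation, with no replicate behind any of them, so these are descriptions.

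**Figure D4:**
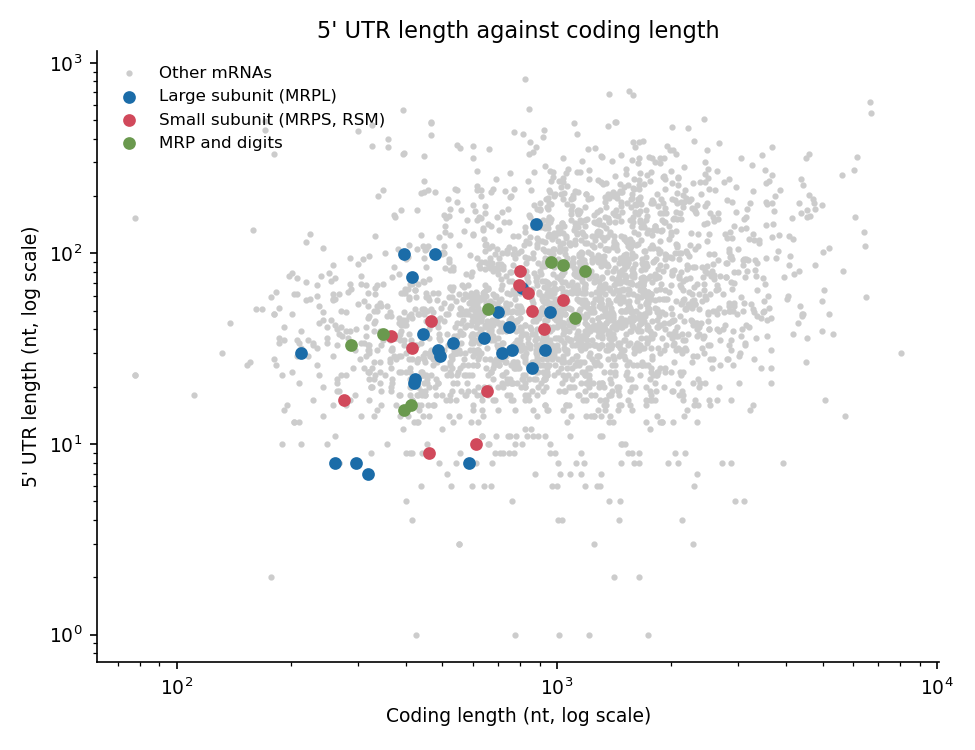
5′ UTR length against coding length, both in nt on log axes, with 1 point per gene, coloured by subunit for the members and grey for other mRNAs. The 5 members with 5′ UTRs of 7 to 9 nt have coding regions of at most 588 nt, and the subunits overlap.

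In total the mRNAs of the members had a median length of 753 nt, against 1296 nt, and UTRs made up a mean of 20.8% of them (SD 7.68, n = 46), against 17.4% in other mRNAs. Among these 46, which have both UTRs listed, MRP4 was the only mRNA longer than 1296 nt. RSM23 has no listed 5′ UTR and was not counted, but its coding region alone is 1467 nt. The large subunit (21.2%, SD 8.75) and the small subunit (20.6%, SD 6.12) had nearly the same mean share.

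An AUG upstream of the coding start was rare in these 5′ UTRs. It was present in MRPL39, MRPL51 and RSM18, 3 of 46 members (6.52%, interval 2.24 to 17.5%), and in 15.2% of all mRNAs. The interval of the members includes the share of all mRNAs, and AUG counts were not compared at matched 5′ UTR lengths. The base 3 before the start codon, an A in most yeast mRNAs, was A in 23 of 46 members (50%, interval 36.1 to 63.9%) and in 68.1% of all mRNAs. It was A in 13 of 24 large subunit genes, 5 of 13 small subunit genes, 60 of 72 cytosolic RPL genes and 50 of 56 RPS genes. In the chosen list of mitochondrial ribosomal genes of other names, 7 of 8 had A there, so the lower share of the named members was not found in that small list.

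The proteins began with basic stretches. Among the first 30 residues, basic residues (lysine and arginine) exceeded acidic ones (aspartate and glutamate) by a mean of 4.36 (SD 1.64, n = 53), against 0.65 (SD 3.41) in the proteins of other mRNAs. The excess was at least 4 in 41 of 53 members, as in 20.5% of all proteins. No acidic residue stood among the first 30 in 24 of 53 members (45.3%) and in 14.0% of other proteins. The large subunit had a mean excess of 4.50 (SD 1.45) and the small subunit 4.21 (SD 1.48), a difference of 0.29 (SE 0.48).

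MRPL4 had the highest excess, 8, with 8 basic and 0 acidic residues. The lowest were MRP8 at 0, with 4 of each kind, and MRPS5 and MRP17 at 1. Cytosolic ribosomal proteins, which are not imported into mitochondria, also had high means, 4.80 (SD 3.53) for RPL and 3.34 (SD 4.31) for RPS, with a wider spread. The GC content of the coding regions was 41.0% on average in the members and 41.2% in other mRNAs.

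**Figure D5:**
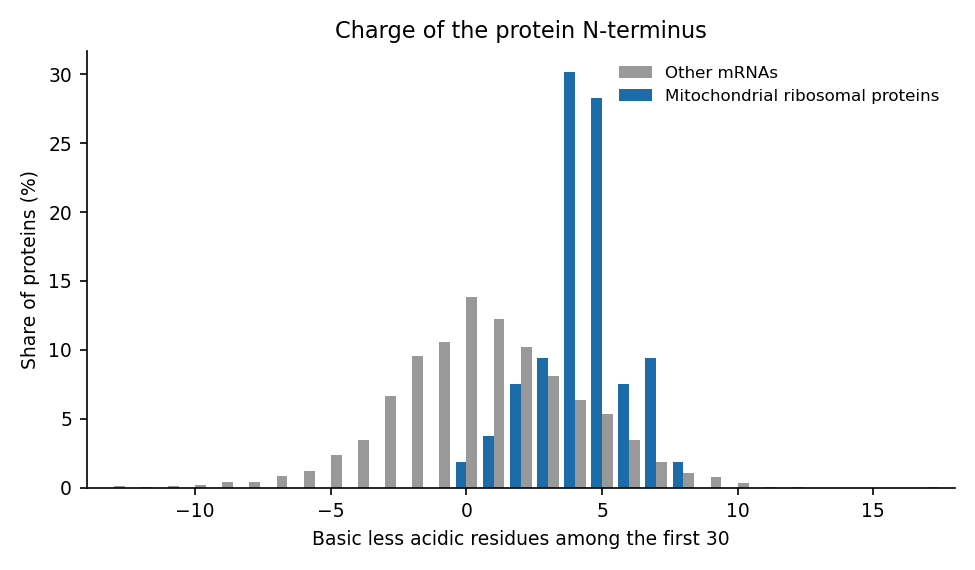
Share of proteins, in percent, by the number of basic less acidic residues among their first 30, for the members (n = 53) and for other mRNAs (n = 2926). The members gather at 4 and 5, while other proteins spread around 0.

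MRPL44 was the only 1 of the 54 members with an intron, against 198 of the 2946 other mRNAs. This intron was of 147 nt, between 58 and 239 nt of coding sequence. In R64 it lies at chr13:721199-721345 on the minus strand, begins with the yeast consensus GTATGT and holds the branch point sequence TACTAAC 32 nt before its end. The windows around both, with these letters in capitals, follow.
MRPL44 donor: ttggcaaggaagGTATGTattttttttcgc
MRPL44 branch point: tctatcacaaaTACTAACagcaaatgatat
Its spliced mRNA was annotated with 8 nt before the coding region of 297 nt and 134 nt after it.

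Neighbouring mRNAs in the annotation overlapped 6 of the 45 members that had a listed neighbour next to them in R64, and 21.2% of all mRNAs with such a neighbour. Each overlap was between the 3′ ends of convergent genes. RSM7 shared 161 nt with YJR112W-A, MRPL50 (bL9m) 92 nt with YNR021W, and MRP1 85 nt with PAL1. The overlaps of RSM7 and MRPL50 were longer than their 3′ UTRs of 114 and 88 nt, so they reached into the coding regions of these 2 members. MRPS18 (uS11m) shared 72 nt with BXI1, MRP4 66 nt with LAG1, a ceramide synthase gene, and MRP51 58 nt with IDI1, the isopentenyl diphosphate isomerase gene. Of the convergent pairs with both facing UTRs listed, 6 of 21 with a member overlapped (28.6%, interval 13.8 to 50.0%), against 56.5% of all such pairs. The overlapping members were 1 large subunit gene, 2 small subunit genes and 3 numbered MRP genes.

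The members were mostly scattered rather than side by side. MRPS12 and RSM19, both small subunit genes, were the only members next to each other, in tandem on chromosome 14 with 130 nt between their mRNAs. MRPL1 (uL1m) faced MRX14, which encodes the large subunit protein bL34m, across a gap of 13 nt between their 3′ ends. MRP10 and FAD1, the flavin adenine dinucleotide synthetase gene, ended 2 nt apart. Where a member shared a divergent promoter region with a neighbour and both 5′ UTRs were listed, none of the 16 pairs overlapped, nor did most other divergent pairs, of which 5 of 345 overlapped (1.45%). The median gap was 242.5 nt with a member and 387 nt in the other pairs.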

How the data were processed

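The authors deposited an annotation of yeast transcripts with the position of each transcript, exon and UTR, counted from 1 per the design text, and these coordinates, which are no measured signal, were the only deposited values used. Samples fall into 4 RNase V1 and 3 nuclease S1 libraries, whose cleavage values were not analysed here, so depth is unknown. The sources used here do not name the authors' genome build or aligner, nor how UTR ends were set.

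The members and gene lists were chosen with earlier results of these data known, and the motif with knowledge of Puf3 targets. Lengths were end minus start plus 1, and introns gaps of at least 10 nt between exons. Symbols, neighbours and sequence came from R64 (RefSeq), with sequence read by gene name at R64 coordinates where its coding length equalled the annotated one, as in 53 of 54 members. RSM23 was left out, and N-termini were translated from R64 coding sequence. The 3′ UTR was the R64 sequence after the stop codon, as long as the annotated one. The motif TGTANATA was sought on the transcribed strand, overlaps allowed.

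Differences are in mean log2 length with SE between genes, and the scripts were tested on simulated data. Named genes were the 3 longest and 3 shortest of each group and length, genes lacking a UTR, with an intron, an overlap or the motif, and adjacent members. The families by R64 name, the length classes, the motif's forms among 3′ UTRs that hold it, the other windows searched, subunits by R64 name, leaving out single genes and dropping the coding length condition were added after the data were seen. The other alternatives were a minimum UTR length, medians, genes without introns, genes with both UTRs, other subunit assignments, without MRP8, and other motifs and windows. Python 3.11.15, numpy 2.4.6, pandas 2.3.3, scipy 1.17.1 and matplotlib 3.10.9 were used.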

Additional observations from a re-analysis of the deposited data

How the results depend on the processing

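The 9 results were recomputed under 57 alternative values, of which 47 kept their direction and, where on the same scale, stayed within 1 SE of the reported value, or within the interval of the motif share. The 5′ UTR difference between large and small subunits, -0.07 in mean log2 length, changed sign in 4. It was 0.18 with UTRs of at least 10 nt, 0.018 without the gene with an intron, 0.017 with RSM genes alone as the small subunit, and 0.040 with RSM26 left out. Of the same sign but over 1.5 times larger, it was -0.25 with the numbered MRP genes added and -0.22 without MRPS12. It was -0.17 with ribosomal proteins of other names added and -0.12 with MRPS genes alone. With subunits by R64 product name it was -0.27. That alternative also takes in genes that are not members (31 large and 23 small subunit genes in all). The coding length difference between subunits, -0.17, was -0.090 without RSM23, -0.26 without RSM19 and -0.30 with ribosomal proteins of other names added. The coding length difference from other mRNAs moved to -0.86 among genes with both UTRs listed. The 3′ minus 5′ difference within members moved to 1.28 with UTRs of at least 10 nt. The motif share moved to 59.2% for TGTAAATA alone and to 71.4% with a C 2 bases before it. The difference in N-terminal excess of basic residues between members and other proteins, 3.71 over 30 residues, was 2.35 over 20 and 4.50 over 40. The cause of each was not tested.

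The 3′ UTR difference between subunits stayed negative in the 11 alternatives run for it, from -0.17 to -0.40 where measured on the log2 scale. Among these, the minimum UTR length of 10 nt left out no gene and could not change the value. The same holds for the 5′ UTR difference between subunits among genes with both UTRs listed. Pairing by library was not possible because no value per library was analysed. The annotation lists 1 length per gene, so how far UTR ends vary within a gene is unknown here, and 5′ UTRs under 10 nt weigh heavily on the log scale.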
